A study of Rattus norvegicus with 20 samples.

Results

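Medium spiny neurons are the GABAergic projection neurons that make up most of the striatum, including its ventral part, the nucleus accumbens, whose shell takes part in reward. A set of transcription factors gives these neurons their identity in the embryo, and many of the factors stay on in the adult. They include zinc finger (Bcl11b, Sp9), forkhead (Foxp1, Foxp2), homeodomain (Meis2, Six3) and helix-loop-helix (Ebf1) proteins, and a pair of nuclear receptors for retinoids (Rarb, Rxrg). The 9 genes were chosen by name, as factors known from rodent striatum, and every probe set that the array's annotation gives to 1 of them alone was taken. Of the 9, 8 had at least 1 such probe set, 17 in all, out of 14217 genes with a probe set of their own. Sp9, a factor that mouse neurons of the indirect pathway need, had no such probe set and was not analysed here.

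Levels in the accumbens shell came from 20 rats of the alcohol-preferring (P) line, selected over generations for drinking ethanol by choice, with 1 Affymetrix array per animal. The ethanol group (n = 10, animals 1 to 10) had access to ethanol solutions of 15 and 30% in adolescence, and the water group (n = 10, animals 12 to 21) had water only. Both groups were P rats, and the labels name no other strain and no second tissue. Dissected tissue mixes cell types, so a lower level of a neuronal gene can come from fewer such neurons or from less RNA in each, and the arrays cannot tell these apart.

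Values are log2 signals after RMA, a procedure that corrects background, equalises the arrays and summarises the probes of each probe set. Levels of different probe sets cannot be set against each other. Array medians lay between 7.93 and 7.98. Water animals 12, 17 and 20 had the arrays that correlated least with the others. Water animals 17, 19 and 20 were named in earlier results of these data because their medium spiny neuron markers were low. In the 25 markers kept here, which exclude the transcription factors, the mean relative to the water median was -0.86, -0.64 and -1.14 in animals 17, 19 and 20. The mean of markers of septum, pallidum and basal forebrain was at 0.90, 0.67 and 1.05 in the same animals, and that of oligodendrocyte markers at 0.50, 0.34 and 0.38. The latter was not particular to these animals. Ethanol animal 8 was at 0.47 for the oligodendrocyte markers and at -0.40 for the medium spiny neuron markers. The difference between 3' and 5' control probe sets, a measure of RNA integrity, ran from 1.06 over a median of 1.17 to 1.43 in ethanol and from 1.10 over 1.36 to 1.70 in water, with 1.63, 1.25 and 1.25 in animals 17, 19 and 20. The part of tissue makeup or RNA integrity in the results below was not tested.

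None of the 8 transcription factors passed an adjusted p of 0.05 for a difference between ethanol and water animals by limma. The p-values were adjusted by Benjamini-Hochberg over the 20695 probe sets kept. The adjusted p-values lay between 0.526 for Rxrg and 0.957 for Meis2, and 0 of the 8 had an unadjusted p under 0.05. Across all 10746 genes kept, 10 (0.0931%) passed, as did 20 probe sets (0.0966%), and 1076 genes (10%) had an unadjusted p under 0.05. The mean was higher in ethanol for 6 factors (Bcl11b, Foxp1, Foxp2, Meis2, Rarb and Rxrg) and lower for 2 (Ebf1 and Six3), where 50.1% of all genes had a higher mean. Their median difference was 0.10 on the log2 scale, against 0.00 over all genes. What set the factors apart from each other was the scatter among water animals, described gene by gene below.

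**Figure D1:**
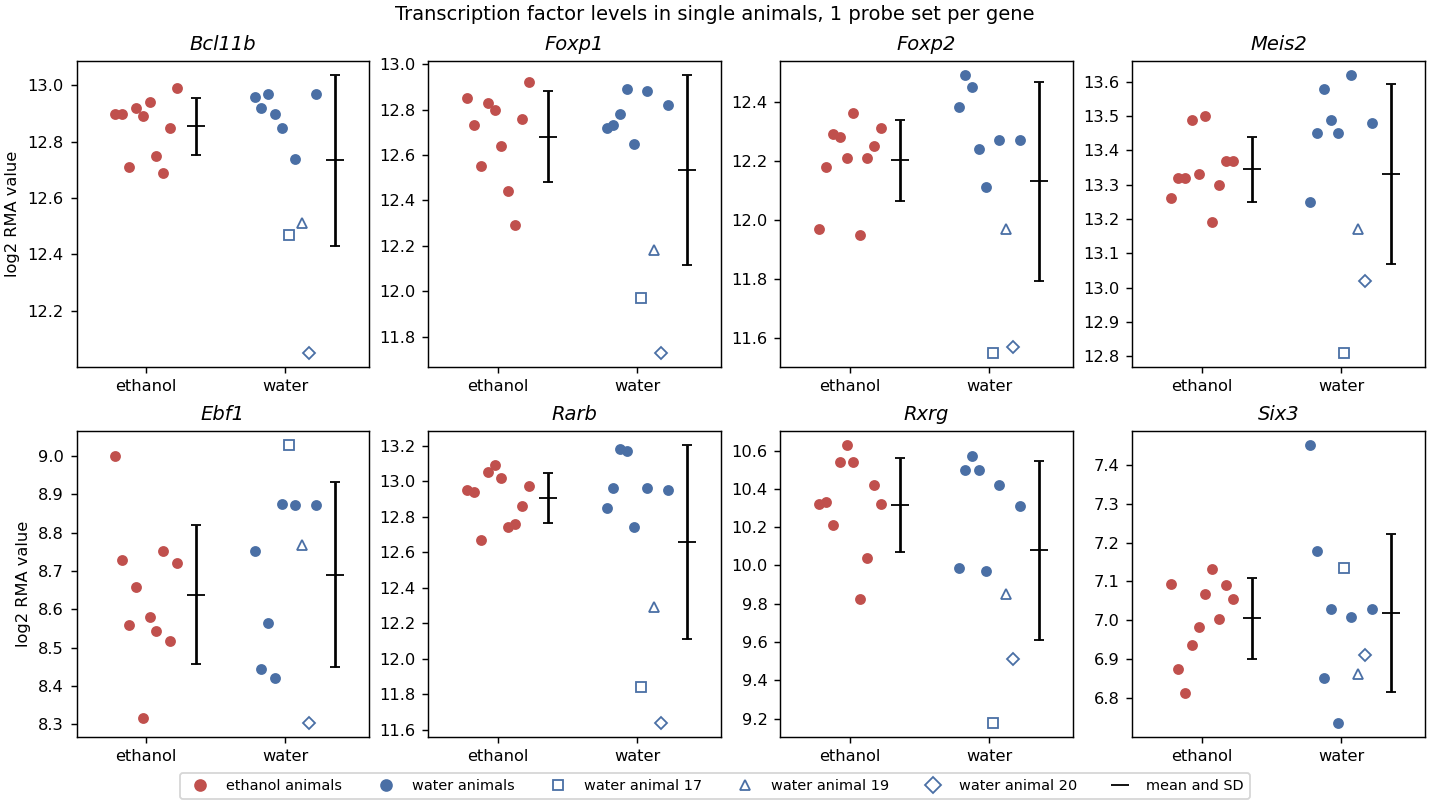
Log2 RMA value of 8 transcription factors (1 probe set each) in every animal, ethanol left of water, with the mean and SD of each group beside the points. Open symbols mark water animals 17, 19 and 20, which lie below all ethanol animals for Bcl11b, Foxp1, Meis2 and Rarb and among them or on both sides of them for Ebf1 and Six3.

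Foxp1, a forkhead repressor that is abundant in adult striatal projection neurons, was measured by 5 probe sets, more than any other of the factors. Its brightest probe set had values of 12.29 (lowest), 12.75 (median) and 12.92 (highest) in ethanol, against 11.73, 12.72 and 12.89 in water. The medians thus differed by 0.02, while the water values reached further down. Animals 20, 17 and 19, at 11.73, 11.97 and 12.18, were the lowest of all 20, and the other 7 water animals lay between 12.65 and 12.89. The difference of the means, ethanol minus water, was 0.15 ± 0.14 (SE, 95% interval -0.14 to 0.43, limma, adjusted p = 0.657).

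On the 4 further Foxp1 probe sets ethanol minus water was 0.20, 0.22, 0.24 and 0.11 (limma, adjusted p from 0.539 to 0.741). All 5 placed animals 17, 19 and 20 below every other animal, and how far below varied between probe sets. Relative to the water median animal 20 was at -0.995 on the brightest and at -1.51 on the next. Animal 17 was between -1.04 and -0.465, and animal 19 between -0.786 and -0.544. Among ethanol animals, number 8 was the lowest on all 5 (12.29 on the brightest), and number 7 came next on 4 of them.

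Foxp2, the forkhead paralog known in humans for a speech and language disorder and in songbirds for vocal learning, had a single probe set. Ethanol animals ran from 11.95 over a median of 12.23 to 12.36, and water animals from 11.55 over 12.25 to 12.49. The water group thus reached beyond ethanol at both ends, with 2 animals (17 and 20) below and 3 (13, 14 and 12) above all ethanol values. Animal 19, at 11.97, lay inside the ethanol range. The means differed by 0.07 ± 0.11 (SE, 95% interval -0.15 to 0.30, limma, adjusted p = 0.797).

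Bcl11b, also called Ctip2, is a zinc finger protein that mouse medium spiny neurons need in order to differentiate. On its brightest probe set the ethanol values ran from 12.69 over a median of 12.90 to 12.99, and the water values from 12.05 over 12.88 to 12.97. Animal 20 was lowest at 12.05, followed by 17 at 12.47 and 19 at 12.51, and the other water animals lay within the ethanol range. Ethanol minus water was 0.12 ± 0.10 (SE, 95% interval -0.08 to 0.32, limma, adjusted p = 0.603). The other probe sets differed by 0.05 and 0.07 (adjusted p = 0.837 and 0.769) and again had animals 20, 17 and 19 as the lowest 3 of all 20.

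Meis2, a homeodomain protein of the TALE class that marks the ganglionic eminence from which striatal neurons arise, had values of 13.19, 13.33 and 13.50 (lowest, median, highest) in ethanol and 12.81, 13.45 and 13.62 in water. Here the ethanol median was the lower by 0.12 although the means were nearly equal, since only 2 ethanol animals lay above the water median. The means differed by 0.01 ± 0.08 (SE, 95% interval -0.16 to 0.19, limma, adjusted p = 0.957). Animal 17 was lowest at 12.81, then 20 at 13.02 and 19 at 13.17, an order that differs from that of Foxp1 and Bcl11b.

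**Figure D2:**
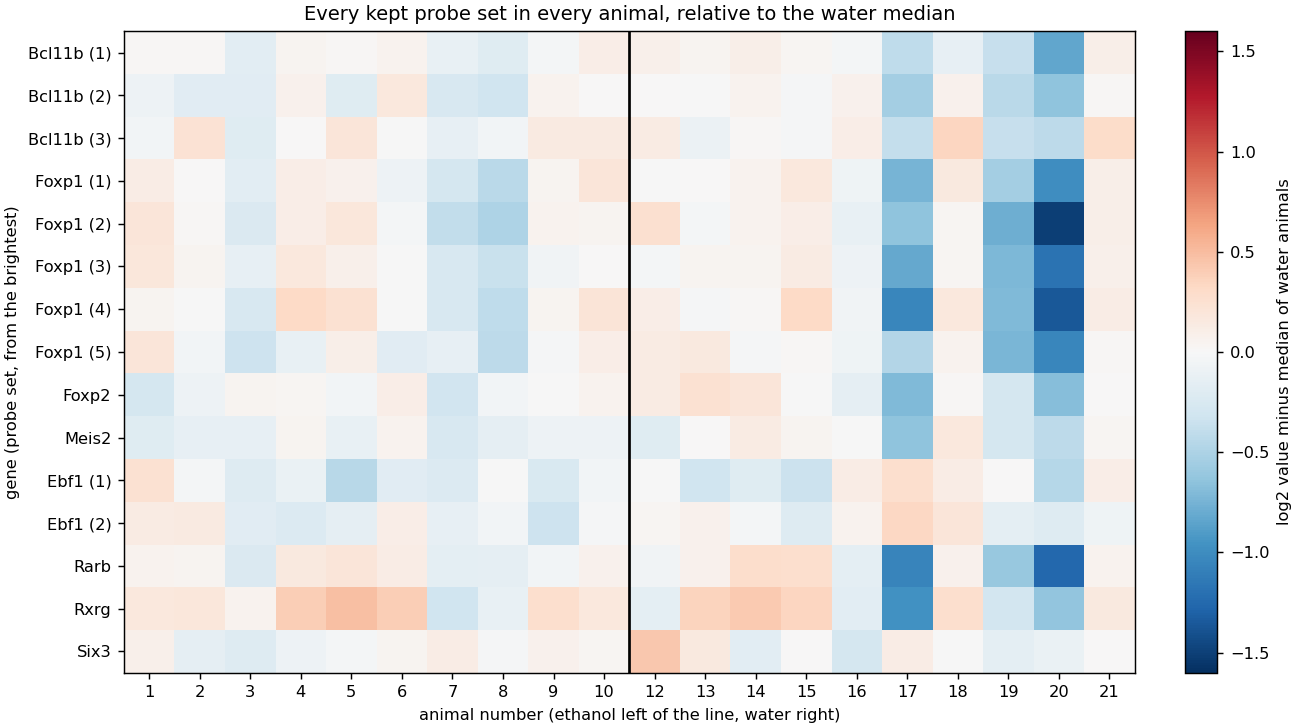
Log2 value minus the median of the water animals for each of the 15 kept probe sets (rows, numbered from the brightest within a gene) in each animal (columns, ethanol left of the line). Blue columns at water animals 17, 19 and 20 run through Bcl11b, Foxp1, Foxp2, Meis2, Rarb and Rxrg, where animal 20 reaches -1.51 on a Foxp1 probe set. For Ebf1 animal 20 is low (-0.456 and -0.21) and animal 17 high (0.269 and 0.327), and for Six3 the 3 animals lie between -0.156 and 0.115.

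Rarb and Rxrg encode receptors that bind DNA together as a heterodimer and switch on genes when retinoic acid is present. In mice, loss of these receptors lowers striatal dopamine receptor expression and impairs movement. Rarb ran from 12.67 over a median of 12.94 to 13.09 in ethanol and from 11.64 over 12.90 to 13.18 in water. Animals 20 and 17, at 11.64 and 11.84, and animal 19, at 12.29, lay below all ethanol animals, and animals 14 and 15, at 13.18 and 13.17, above them. The difference of the means was the largest among the 8 factors, 0.245 ± 0.165 (SE, 95% interval -0.10 to 0.59, limma, adjusted p = 0.539), or 1.18-fold, and that of the medians was 0.05.

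Rxrg ran from 9.83 over a median of 10.33 to 10.63 in ethanol and from 9.18 over 10.15 to 10.57 in water. Its medians differed by 0.18, more than those of any other factor with a higher median in ethanol, and 8 of 10 ethanol animals lay above the water median. Animals 17 and 20 were lowest at 9.18 and 9.51, while animal 19, at 9.85, lay just above ethanol animal 7, at 9.83. Ethanol minus water was 0.24 ± 0.15 (SE, 95% interval -0.08 to 0.56, limma, adjusted p = 0.526). Its other probe set averaged 5.66 in ethanol and 5.58 in water and was too dim to be tested.

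The promoters of Foxp1, Rarb and Rxrg are shown because these genes were low in the same animals and their sequences were at hand. They are RefSeq sequences of the rat assembly GRCr8, from 250 bases before to 50 bases after the annotated start, on the strand of the gene and in lower case with matched motifs in capitals. The capitals mark TGTTTAC, a forkhead core, in Foxp1 (chr4:133353231-133353530, minus strand), the pair GGTTCA and AGTTCA, retinoid receptor cores, in Rarb (chr15:11336142-11336441, plus strand), and TGACAG, a Meis core, in Rxrg (chr13:82276237-82276536, plus strand).
Foxp1: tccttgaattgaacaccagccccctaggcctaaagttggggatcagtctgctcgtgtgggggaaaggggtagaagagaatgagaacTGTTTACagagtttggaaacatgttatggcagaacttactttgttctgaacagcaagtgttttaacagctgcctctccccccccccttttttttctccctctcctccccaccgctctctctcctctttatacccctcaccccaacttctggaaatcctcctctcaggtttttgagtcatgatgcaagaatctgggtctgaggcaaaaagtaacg
Rarb: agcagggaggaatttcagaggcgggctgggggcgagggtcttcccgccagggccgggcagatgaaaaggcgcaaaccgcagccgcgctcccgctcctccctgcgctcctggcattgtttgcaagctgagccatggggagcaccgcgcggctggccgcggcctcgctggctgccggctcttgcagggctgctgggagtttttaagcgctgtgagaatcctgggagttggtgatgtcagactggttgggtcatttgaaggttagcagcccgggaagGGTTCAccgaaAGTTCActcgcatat
Rxrg: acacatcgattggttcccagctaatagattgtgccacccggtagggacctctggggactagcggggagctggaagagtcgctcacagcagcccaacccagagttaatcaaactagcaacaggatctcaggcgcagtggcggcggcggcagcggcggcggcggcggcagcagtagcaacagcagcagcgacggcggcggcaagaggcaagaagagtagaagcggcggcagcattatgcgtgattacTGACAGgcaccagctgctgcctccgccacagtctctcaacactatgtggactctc

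In Rarb the cores are 5 bases apart and start 24 and 35 bases after the annotated start, the spacing of the retinoic acid response element through which this receptor's gene is known to be switched on by its own ligand in mice and humans. The whole pattern, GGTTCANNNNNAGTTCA, was searched after the Rarb promoter had been seen and occurs in 3 of 33469 rat promoters (0.00896%). Single cores are common: AGTTCA occurs in 14.5%, GGTTCA in 11.7%, AGGTCA in 16.2%, TGACAG in 19% and TGTTTAC in 3.78% of promoters, on either strand. Six3 also holds TGACAG. The GC box GGGCGG (33.1%) and the Ebf core CCCNNGGG (12.4%) were in none of the 6 promoters at hand, those of Foxp1, Ebf1, Rarb, Rxrg, Sp9 and Six3, nor was AGGTCA. A match is a description of the sequence and shows no binding.

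Ebf1, which mouse neurons of the direct pathway need in order to mature, did not follow the others. Its brightest probe set ran from 8.315 over a median of 8.619 to 8.999 in ethanol and from 8.30 over 8.76 to 9.03 in water. Animal 17, low for 6 of the factors, was the highest of all 20 here at 9.03, animal 20 was the lowest at 8.30, and animal 19, at 8.77, lay 0.009 above the water median. Ethanol minus water was -0.05 ± 0.09 (SE, 95% interval -0.24 to 0.13, limma, adjusted p = 0.825), although only 1 of 10 ethanol animals lay above the water median. The next probe set differed by -0.07 (adjusted p = 0.693) and also had animal 17 at the top, and the dimmest was left out, at 6.51 in ethanol and 6.59 in water.

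Six3, a homeodomain protein needed for neurons of the indirect pathway in mice, was dim, with means just above the level of 6.65 under which probe sets were left out. It ran from 6.81 over a median of 7.03 to 7.13 in ethanol and from 6.74 over 7.02 to 7.45 in water. The highest values were those of water animals 12, 13 and 17, and the lowest that of water animal 16, so animals 17, 19 and 20 did not stand together. The means differed by -0.01 ± 0.07 (SE, 95% interval -0.16 to 0.13, limma, adjusted p = 0.949).

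The positive differences of the factors depended on animals 17, 19 and 20. Without these 3 animals Bcl11b, Foxp1, Foxp2, Meis2, Rarb and Rxrg differed by -0.05, -0.10, -0.115, -0.13, -0.07 and -0.005, and none passed (adjusted p between 0.386 and 0.991). Ebf1 and Six3 stayed near their values, at -0.05 and -0.04. The 3 animals had been picked for low medium spiny neuron markers, and so their omission by itself moves up the water mean of every gene that follows those markers. Meis2 had the smallest p of the factors in that setting, with a 95% interval of -0.24 to -0.02 (adjusted p = 0.386), and 50 probe sets in all passed there, against 20 with all animals.

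**Figure D3:**
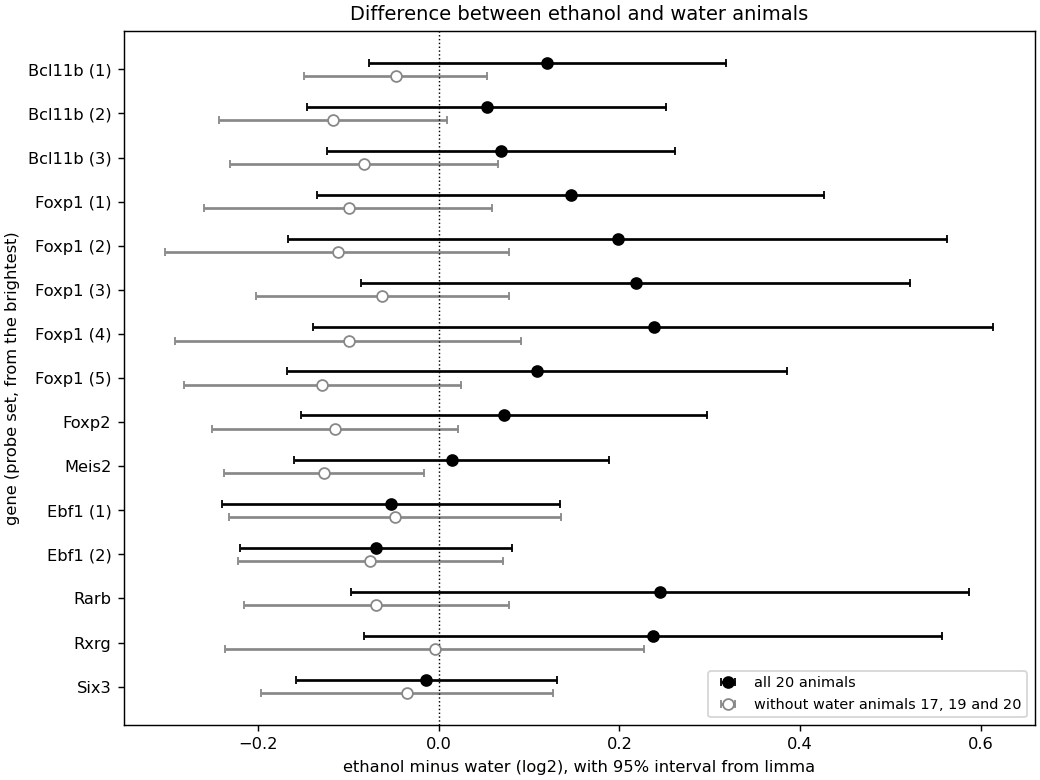
Ethanol minus water on the log2 scale with its 95% interval for the 15 kept probe sets, in all 20 animals (filled) and without water animals 17, 19 and 20 (open). All 12 positive differences turn negative without the 3 animals, while those of Ebf1 and Six3 move little, and every interval over all 20 animals includes 0.

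The spread between animals was smaller in ethanol for all 8 factors, as it was for 80.1% of all genes. For Rarb the SD was 0.14 in ethanol and 0.55 in water, and for Bcl11b it was 0.10 in ethanol and 0.30 in water. Meis2, Foxp2 and Foxp1 had SDs of 0.096, 0.14 and 0.20 in ethanol, against 0.26, 0.34 and 0.42 in water. Rxrg, Six3 and Ebf1 had SDs of 0.24, 0.10 and 0.18 in ethanol, against 0.47, 0.20 and 0.24 in water. The water SD was thus 3.83 times the ethanol SD for Rarb and 1.33 times for Ebf1, with the others between 1.90 and 2.98. These values are from the brightest probe set of each factor. On the further kept probe sets the ratio was 1.76 and 1.94 for Bcl11b, between 2.15 and 2.7 for Foxp1 and 1.07 for Ebf1. On the dim probe sets left out it was 0.718 for Ebf1, with the larger SD in ethanol, and 1.1 for Rxrg.

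Spread was tested on the absolute deviation of each animal from its group's median, with limma over all probe sets. For Rarb the mean deviation was 0.111 in ethanol and 0.385 in water (difference -0.275 ± 0.133 SE, adjusted p = 0.451), and for Rxrg it was 0.175 in ethanol and 0.378 in water (difference -0.20 ± 0.09 SE, adjusted p = 0.442). None of the 8 passed, and Rxrg alone had an unadjusted p under 0.05 (p = 0.032 by limma, n = 10 each), where 10.1% of all genes did so with the smaller spread in ethanol and 0.363% with the larger. This test passed a single gene in all (0.00931% of genes, 0.00483% of probe sets), the RNA-binding protein gene Celf5. In simulated data the same test recovered 0% of changes planted at water over ethanol SD ratios of 2, 3, 4 and 6. Its lack of calls for the factors thus carries little information. The median spread difference over the factors was -0.135, against -0.03 over all genes.

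By an F test of the variances, added after seeing the data, Rarb passed (adjusted p = 0.027) and the other 7 did not (Bcl11b 0.0585, Meis2 0.0767, Foxp2 0.108, the rest between 0.174 and 0.634). On the further kept probe sets the adjusted p of this F test was 0.302 and 0.224 for Bcl11b, between 0.0788 and 0.16 for Foxp1 and 0.927 for Ebf1. That test passed 4.40% of all genes with the smaller spread in ethanol and 0.0931% with the larger. In simulated data with normal noise it recovered 0, 12, 46 and 82% of changes planted at SD ratios of 2, 3, 4 and 6. The other 7 factors had ratios between 1.33 and 2.98, so their lack of a call carries little information and does not set Rarb apart. Without animals 17, 19 and 20 the water SD was 0.16 for Rarb, 0.08 for Bcl11b, 0.09 for Foxp1, 0.13 for Foxp2, 0.12 for Meis2 and 0.25 for Rxrg. For Ebf1 it was 0.205 and for Six3 0.23. The water SD then lay below that of ethanol for Bcl11b, Foxp1 and Foxp2 and above it for Meis2, Ebf1, Rarb, Rxrg and Six3, by most for Six3.

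**Figure D4:**
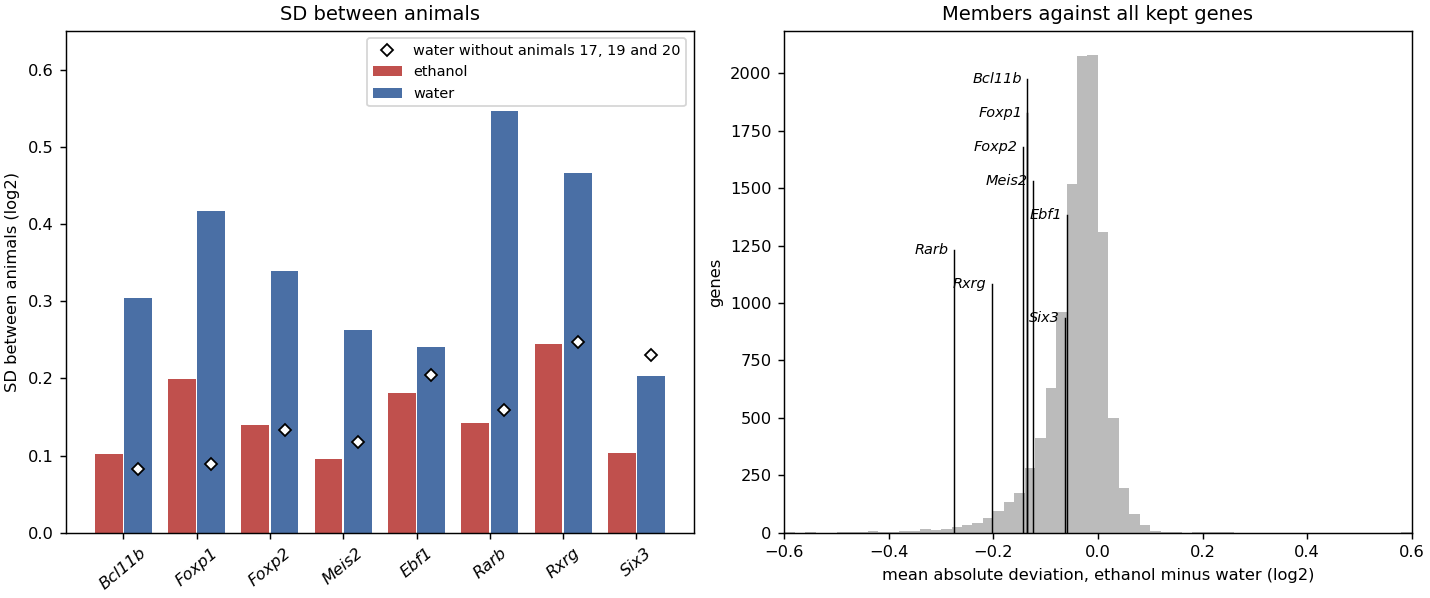
Left, SD between animals on the log2 scale for each factor in ethanol and water, with open diamonds for water without animals 17, 19 and 20. Right, the difference in mean absolute deviation (ethanol minus water) of the 8 factors as lines over the histogram of all 10746 genes, with values beyond the axis in its end bars, where Rarb at -0.275 lies furthest left of the factors.

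The factors followed the medium spiny neuron markers to different degrees. Animals 17, 19 and 20 were the lowest 3 of all 20 for 4 of the 8 factors (Bcl11b, Foxp1, Meis2 and Rarb), for 21 of the 25 markers and for 5.16% of all genes. They were the highest 3 for none of the factors and for 7.64% of all genes. Since these animals were chosen on such markers, the count is a description. Relative to the water median, animal 20 was at -1.26 for Rarb, -0.995 for Foxp1, -0.83 for Bcl11b, -0.69 for Foxp2, -0.635 for Rxrg and -0.425 for Meis2. Animal 17 was at -1.06 for Rarb, -0.97 for Rxrg, -0.75 for Foxp1, -0.71 for Foxp2, -0.64 for Meis2 and -0.41 for Bcl11b. For animal 19 the values were nearer the median, from -0.60 for Rarb to -0.28 for Meis2. Animal 20 had the lowest marker mean of all, yet animal 17 was the lower of the pair for Foxp2, Meis2 and Rxrg.

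With the marker mean as a covariate the differences of Bcl11b, Foxp1, Foxp2, Meis2, Rarb and Rxrg were -0.03, -0.09, -0.07, -0.11, -0.03 and 0.002 (limma, adjusted p between 0.437 and 0.994). Foxp1 had the smallest p there (-0.09 ± 0.04 SE, unadjusted p = 0.0282, adjusted p = 0.437). A covariate that itself differs between the groups removes part of any difference they share, so these values describe the factors relative to the markers.

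**Figure D5:**
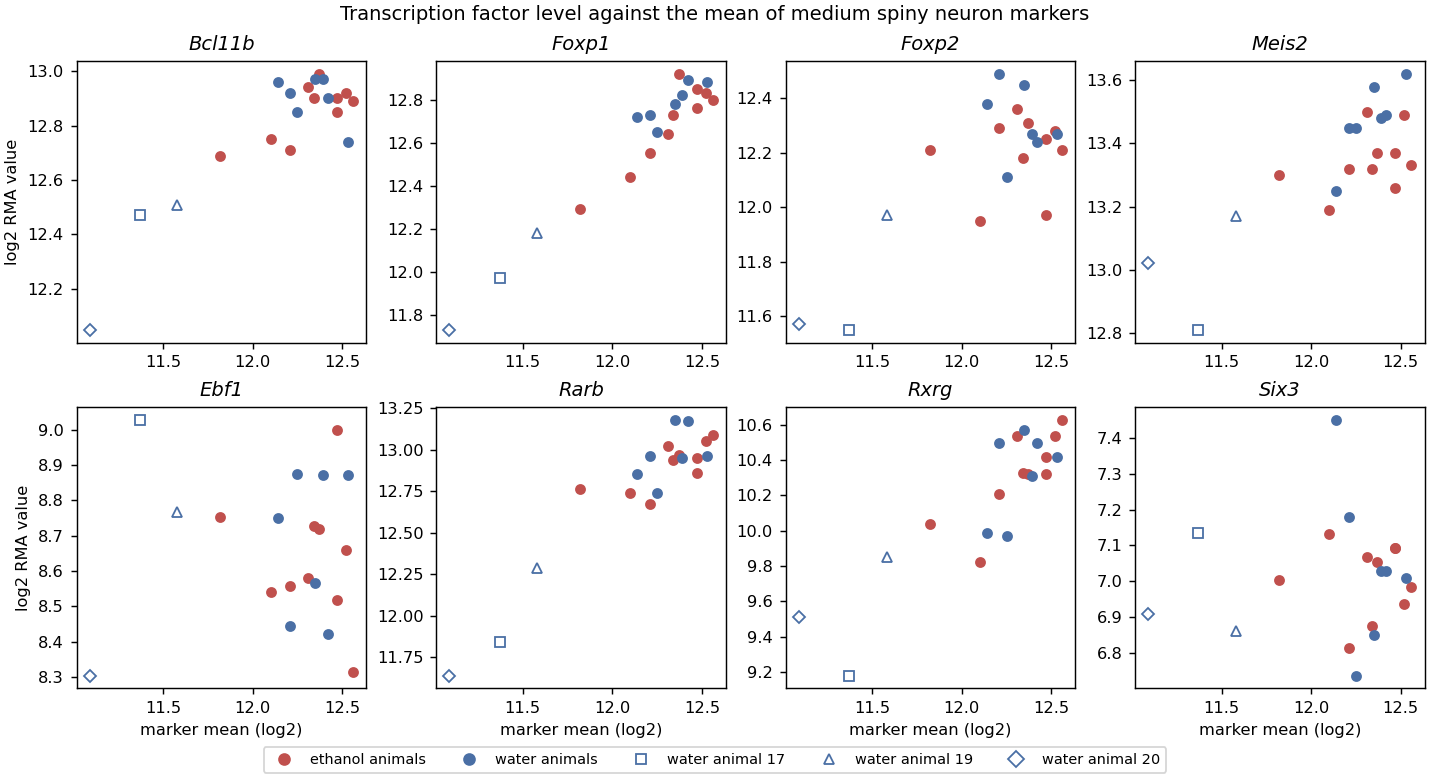
Log2 value of each factor against the mean of 25 medium spiny neuron markers in the same animal, with ethanol and water in different colours and open symbols for water animals 17, 19 and 20. Foxp1 lies along a narrow band from 11.73 at the lowest marker mean (11.09), while Ebf1 and Six3 show no such band.

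Pairs of factors were compared by Pearson's r over the 20 arrays after the mean of each group was subtracted, as a description, since all values come from the same arrays. The highest r were 0.94 for Foxp1 with Rarb, 0.92 for Bcl11b with Rarb and for Bcl11b with Foxp1, and 0.91 for Meis2 with Rxrg. Over the 17 arrays without animals 17, 19 and 20 these were 0.67, 0.63, 0.65 and 0.72, and the highest was 0.85, for the partners Rarb and Rxrg. Ebf1 had r between -0.28 and 0.15 with every other factor over the 20 arrays, and Six3 between -0.19 and 0.24. Without animals 17, 19 and 20 Ebf1 ran from -0.42 with Foxp2 to 0.02 with Foxp1. Six3 then ran from -0.49 with Meis2 to 0.21 with Bcl11b.

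The genes most like each factor, by the same measure over all 10746 genes with predicted loci left out, included striatal signalling genes. Foxp1 was followed most closely by Ankrd33b, Ano3, a member of the anoctamin family, and Pde10a, the cyclic nucleotide phosphodiesterase of medium spiny neurons (r = 0.98 each, and 0.92, 0.93 and 0.90 without animals 17, 19 and 20). Rarb was followed by Pde4b, Syndig1 and Gnal, the stimulatory G protein subunit of the striatum (0.98 each, and 0.84, 0.81 and 0.81). Rxrg was followed by Mn1, Stra6, the membrane receptor through which cells take up retinol, and Brinp1 (0.96, 0.956 and 0.944, and 0.895, 0.886 and 0.849). Meis2 was followed by Sez6, Synpr and Mcu (0.94, 0.94 and 0.93, and 0.889, 0.826 and 0.812). The likeness rested more on animals 17, 19 and 20 for Bcl11b, followed by Filip1, Akap5 and Cyrib (0.955, 0.95 and 0.934, and 0.657, 0.725 and 0.613 without them). The same held for Foxp2, followed by Lrrn3, Zfp503 and Nim1k (0.92 each, and 0.648, 0.567 and 0.613). For Ebf1 the closest were Snrpa1, Calb1 and Mpped1 (0.74, 0.72 and 0.65, and 0.654, 0.698 and 0.646), and for Six3 Ooep, Lrrc46 and Entpd1 (0.775, 0.771 and 0.757, and 0.76, 0.769 and 0.75). Over the 20 arrays these were lower than for the other factors, but without animals 17, 19 and 20 the values of Six3 were above those of Bcl11b and Foxp2. Water animal 12 was kept in that setting. It was the highest of all for Six3 (7.45) and stood apart among water animals for Ooep (8.35, next 7.90). How far the likeness of Six3 rests on animal 12 was not tested.

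The paralogs of the factors showed no common difference. Of 19 listed, 9 were kept, 0 passed, 4 were higher and 5 lower in ethanol, with a median difference of -0.01. Foxp4, Meis3 and the retinoic acid receptor Rara had the smallest p, at -0.13, -0.09 and 0.06 (limma, adjusted p = 0.51, 0.517 and 0.684). Bcl11a, the closest relative of Bcl11b, differed by 0.01, and relative to its water median animals 17, 19 and 20 were at 0.02, -0.003 and -0.02, where Bcl11b was at -0.41, -0.37 and -0.83.

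Of 31 other transcription factors of striatum and ganglionic eminence, 23 were kept and 0 passed, with 11 higher and 12 lower in ethanol and a median difference of -0.02. The smallest p-values belonged to Ikzf2, a zinc finger protein also called Helios, Pou3f1 and Zfhx3, at -0.226, -0.244 and -0.235 (limma, adjusted p = 0.304, 0.324 and 0.327). Animals 17, 19 and 20 were the lowest 3 for 5 of them (Pou3f4, Zfp503, Dlx5, Foxo1 and Mef2a), against 5.16% of all genes. Nr2f2, a nuclear receptor of caudal ganglionic eminence, lay 1.13, 1 and 1.36 above its water median in animals 17, 19 and 20.

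Among genes that handle retinoids or relay their signal, 12 of 18 were kept and 0 passed, with 9 higher and 3 lower in ethanol and a median difference of 0.04. Rdh10, which makes the retinaldehyde from which retinoic acid is formed, differed by 0.35 (10.06 ± 0.25 in ethanol and 9.71 ± 0.57 in water, SD, n = 10 each, limma, adjusted p = 0.44). Crabp2, a carrier of retinoic acid, and the coactivator Ncoa1 differed by 0.13 and 0.07 (adjusted p = 0.457 and 0.519). Animals 17, 19 and 20 were the lowest 3 for Rdh10, Ncoa1, Dhrs3, which turns retinaldehyde back into retinol, and the retinol carrier Rbp4, 4 of 12 genes, against 5.16% of all genes. The list did not move as 1 in these animals: Aldh1a1, an enzyme that makes retinoic acid, was at 0.977, 0.113 and 0.385 relative to its water median, and Crabp2 at 0.165, -0.02 and -0.144. Stra6 was at -1.20, -0.54 and -0.98 relative to its water median in animals 17, 19 and 20, and ethanol animal 7 was also low, at 7.67.

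Markers of cell types describe the tissue in which the factors were measured. They do not show which cells the signal of each factor came from. Of 29 medium spiny neuron markers 25 had a probe set and all 25 were kept, among them Ppp1r1b, Drd1, Drd2, Penk and Tac1. Of these 24 were higher in ethanol, where 50.1% of all genes were, 0 passed, and the median difference was 0.29, with Rgs9, Arpp19 and Ankrd63 at 0.35, 0.34 and 0.20 (limma, adjusted p = 0.394, 0.402 and 0.404). The higher marker mean in ethanol rested on the low water animals: ethanol minus water was 0.179 without animal 20, and without animals 17, 19 and 20, chosen on these markers, the mean was 12.32 in ethanol (n = 10) and 12.33 in water (n = 7). Of 11 cortical excitatory markers with a probe set 6 were kept, and the defining Slc17a7, Neurod6 and Tbr1 were dim. The cortical mean ran from 8.41 to 8.98 in ethanol and from 8.39 to 8.93 in water, where animal 19 was highest.

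Some markers of neighbouring tissue were high in the animals where the factors were low. Animals 17, 19 and 20 were the highest 3 for 3 of the 6 kept markers of septum, pallidum and basal forebrain, against 7.64% of all genes. The mean of the 6 ran from 7.26 over a median of 7.48 to 7.78 in ethanol and from 7.11 over 7.46 to 8.51 in water. In animals 17, 19 and 20 Slc17a6, the vesicular glutamate transporter of subcortical neurons, lay 2.17, 1.79 and 2.55 above its water median, and Gbx2 1.38, 1.30 and 1.64 above. Zic2, Prkcd and Gbx2 had the smallest p of that list (0.15, 0.21 and -0.40, limma, adjusted p = 0.346, 0.359 and 0.517), and 0 of its 6 genes passed, with a median difference of -0.25. In Zic2 and Prkcd animals 17, 19 and 20 were not high (at most 0.02 above the water median). The defining Zic1 and Tacr3 were dim. The oligodendrocyte mean (15 of 18 genes kept, 0 passed, 15 lower in ethanol, median difference -0.17) ran from 10.79 to 11.68 in ethanol and from 10.77 to 11.71 in water.

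The remaining marker lists had 0 genes past the threshold. The smallest adjusted p of any list belonged to the endothelial genes Egfl7 and Tie1, at 0.177 and 0.198 (limma, adjusted p = 0.225 and 0.283). Interneuron and cholinergic markers (12 kept) had a median difference of -0.02 and list means of 10.09 to 10.65 in ethanol and 10.12 to 10.85 in water. Animals 17, 19 and 20 were the highest 3 for 4 of these 12, against 7.64% of all genes, and the lowest 3 for 0. The mean of this list lay 0.30, 0.35 and 0.48 above its water median in animals 17, 19 and 20. Astrocyte (11 kept), microglia (11 kept) and endothelial and mural markers (11 kept) had median differences of -0.03, -0.08 and 0.10. Of the ependyma, choroid plexus and blood markers 2 were kept, and the choroid plexus gene Ttr was dim.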

How the data were processed

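RNA of 20 nucleus accumbens shells was measured on 1-colour Affymetrix arrays, with biotin-labelled cRNA made from the 3' end, per the labels' protocols. The authors deposited values on the log2 scale after RMA, per the submitters' processing notes, and the sources used here give no software version or chip definition. Because RMA equalises the arrays, a change common to most genes would not show, and differences of dim probe sets come out too small. The table held 31099 probe sets, of which 57 are controls, 20826 name 1 gene and 436 several. Probe sets with the lowest 33.3% of means (below 6.65) and controls were left out, which kept 20695 probe sets and 10746 genes. The probe set with the highest mean stands for a gene. All columns of sample values were used.

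Groups were compared with limma (version 3.58.1, R 4.3.3, lmFit and eBayes, two-sided, no covariates), with Benjamini-Hochberg adjustment over all kept probe sets and a threshold of 0.05. Spread was fitted the same way on absolute deviations from group medians. Both fits were tested on simulated data, where the difference fit recovered 42% of planted differences of 0.25 and 90% of those of 0.5. The simulated noise was normal, independent between probe sets and of equal SD in both groups. In that simulation 171 probe sets passed, against 20 in these data, which makes the adjusted threshold easier to pass. These shares thus do not give the power for the factors. In the same simulated data the deviation test recovered 0% of the planted spread changes, so its lack of calls carries little information. An F test of the variances was added after seeing the data. Every probe set of the 9 genes is reported. No gene of the other lists passed. The 3 genes of smallest p are named for the paralogs, the other factors, and the retinoid, medium spiny neuron and septum lists. The remaining lists are given by counts, medians or means. Further genes of a list are given by their values, and for each factor the 3 genes with the highest r are named. The members and lists were chosen with earlier results of these data known. The number of arrays limits the precision, since arrays have no read depth. Alternatives varied the filter, normalization, animals, variance model, array weights, probe set choice and covariates. Marker means without water animals 17, 19 and 20 were also an alternative chosen after seeing the data.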

Additional observations from a re-analysis of the deposited data

Results flagged for a closer look

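A sample far from the others of its group was looked for in 176 groups of 10 animals (each probe set, list mean and further named gene, in ethanol and in water), and chance alone picks out about 1 in 20 such groups. No probe set of the 8 transcription factors was picked out. The rule sets the gap between the most extreme value and the next against the range of the group. Animals that are low together can hide each other from it, as water animals 20, 17 and 19 do for Rarb, at 11.64, 11.84 and 12.29. The lack of a flag thus says little about these 3 animals. The mean of the cortical excitatory markers was 8.98 in ethanol animal 3, with the next value at 8.60. Arpp19, a phosphoprotein gene on the list of medium spiny neuron markers, was 11.77 in ethanol animal 8, with the next at 12.29. Stra6 was 7.67 in ethanol animal 7, with the next at 8.09. Prkcd was 8.06 in water animal 20, with the next at 8.30. Ooep was 8.35 in water animal 12, with the next at 7.90.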

How the results depend on the processing

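No transcription factor passed for the ethanol against water difference under any of the alternatives run, and their adjusted p-values lay between 0.386 and 0.999. Values are log2 differences, ethanol minus water, and probe sets of a gene are listed from the brightest. Leaving out 1 animal at a time gave -0.0436 to 0.0465 for Meis2, -0.0453 to 0.0341 for Six3 and -0.00311 to 0.0778 for the Bcl11b probe set next to the brightest. It gave 0.0441 to 0.147 for Bcl11b, 0.0562 to 0.189 for Foxp1 and 0.131 to 0.303 for Rarb, lowest without water animal 20, and 0.00753 to 0.113 for Foxp2 and 0.137 to 0.292 for Rxrg, lowest without water animal 17. Foxp2 was at 0.00989 without animal 20. Ebf1 ran from -0.0958 without water animal 20 to -0.0152 without water animal 17. Without water animals 17, 19 and 20 the 3 Bcl11b probe sets were at -0.0477, -0.117 and -0.0826 and the 5 Foxp1 probe sets at -0.10, -0.112, -0.0629, -0.10 and -0.129. Foxp2, Meis2, Rarb and Rxrg were then at -0.115, -0.127, -0.0695 and -0.00474. With the medium spiny neuron marker mean as a covariate the Bcl11b probe sets were at -0.0262, -0.0964 and -0.064 and those of Foxp1 at -0.0886, -0.0927, -0.0342, -0.075 and -0.101. Foxp2, Meis2 and Rarb were then at -0.0725, -0.108 and -0.0276. Without the arrays of low correlation (water animals 12, 17 and 20) Foxp1, Foxp2, Meis2 and Six3 were at -0.0232, -0.0553, -0.116 and 0.0486, the 2 dimmer Bcl11b probe sets at -0.0553 and -0.0104 and the dimmest of Foxp1 at -0.00517. With array weights Foxp2, Meis2, Six3 and the Bcl11b probe set next to the brightest were at -0.00043, -0.064, 0.0213 and -0.00711. Adjusted for the oligodendrocyte mean, Foxp1, its dimmest probe set, Foxp2, Meis2 and the Bcl11b probe set next to the brightest were at -0.00524, -0.0194, -0.0309, -0.0646 and -0.0426. Adjusted for the control probe sets' 3' to 5' difference, the 2 Ebf1 probe sets were at 0.021 and 0.0203 and Six3 at 0.0593. The cause of these reversals was not tested. The count of 20 probe sets called became 10 with probe sets below the median mean left out, 50 without animals 17, 19 and 20, 38 with array weights, 7 adjusted for the 3' to 5' difference and 49 adjusted for the marker mean.

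For the spread, Bcl11b, Foxp1 and Rarb were at 0.017, 0.0792 and 0.000719 without animals 17, 19 and 20, and Foxp1 at 0.00208 without animals 12, 17 and 20. In both settings 0 probe sets were called. The single called probe set became 0 without any of the 10 water animals in turn, 2 without ethanol animal 8 and 2 with deviations from the mean. The F test called 945 probe sets and 1 of the 8 factors, Rarb (log2 ratio of the SDs -1.94). Six3 lay below the median mean and had no value under that filter. No paired analysis was possible because the 2 groups share no animal numbers.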
